A study of Mus musculus with 2 samples.

Results

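The cytoplasmic ribosomal protein genes were taken as the genes whose symbol is Rpl or Rps followed by a number and at most a single letter a, x, l or y, together with Rplp0, Rplp1, Rplp2 and Rpsa. The rule found 81 genes, 32 of the small subunit and 49 of the large subunit, among the 33456 genes of the tables. Of these, 80 had at least 10 UMIs (unique molecular identifiers, 1 per captured mRNA molecule) in both libraries together. Rpl3l, with 6 UMIs, did not. Rps4l is annotated as a transcribed processed pseudogene but falls under the rule and was kept.

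Both libraries were droplet-based (10x Chromium) single-cell RNA-seq of C57BL/6 mouse cells. The EB library came from day 4 embryoid bodies, aggregates of differentiating embryonic stem cells that had been grown with LIF on embryonic fibroblast feeders and then without feeders. The differentiation medium held serum and ascorbic acid, and the labels describe the cells as hemangiogenic mesoderm-favoured. The YS library came from yolk sacs of E9.5 and E10.5 embryos in equal numbers, mixed before dissociation with collagenase. EB cells were released with Accutase. Cells of both were frozen in DMSO and serum, thawed and sorted as live cells, and a large part of the Ter119+ (erythroid) cells was removed from YS. The ES line and the number of embryos were not given in the sources used here. With 1 library per group there is no replicate, so that no p-value is given. Tissue, dissociation and library cannot be told apart. All intervals are 95% intervals that cover counting error only. UMIs of a gene were summed over cells and scaled by all UMIs of the cells to CPM, the usual scaled count. A gene was called higher or lower from a CPM difference of at least 1.5-fold.

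After the cell filter 1878 EB cells (50691307 UMIs, median 25547 per cell) and 775 YS cells (24184081 UMIs, median 28461) remained. The libraries shared 2 cell barcodes. The mean droplet without a cell held 0.987% and 0.191% of the UMIs of the median cell. Marker genes went with the labels: Pou5f1, a pluripotency factor, stood at 591 CPM in EB and 0.414 in YS, whereas Hbb-y, an embryonic globin, had no UMI in EB and stood at 31837 CPM in YS. Cells were clustered without any ribosomal gene, into 11 clusters in EB and 14 in YS, and cluster names below mean likeness to a marker list. A YS cluster of 11 cells was left out of comparisons between clusters.

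A ribosome consists of a small subunit, which decodes the mRNA, and a large subunit, which joins amino acids, and each cytoplasmic ribosomal protein is generally present once per ribosome. The acidic proteins Rplp1 and Rplp2 form the exception. They sit as dimers on Rplp0 and build the P-stalk, which recruits translation factors. Ribosomal protein mRNAs are a class of TOP mRNAs: they start with a C followed by a run of pyrimidines, through which mTOR signalling regulates their translation. Most mammalian ribosomal protein genes have processed pseudogenes, intronless copies made by reverse transcription of the mRNA, and a few have expressed paralogs known from testis or muscle. Heterozygous loss of several of them causes Diamond-Blackfan anaemia in humans.

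The start sites were searched for the pyrimidine run of the class. Of the 81 genes, 60 were found in the RefSeq promoter table (GRCm38.p6). In 34 of these 60 (56.7%) a run of at least 7 pyrimidines lay within 20 bases of the annotated start, against 24.2% of 26965 other promoters. An ETS core, CCGGAAG on either strand, was found in the 300 bases from 250 before to 50 after the start in 40% of the 60 and in 9.05% of the others. The YY1 core AAGATGG was in 13.3% and 6.46%, the E-box CACGTG in 8.33% and 7.24%, and TATAAA in 8.33% and 14.2%. The following 30-base stretches around the annotated start show the run, in capitals, for 4 genes, and its absence for Rps28, a gene discussed below. They lie at chr2:39005117-39005146 (−), chr4:86857353-86857382 (−), chr17:27635230-27635259 (−), chr11:114668565-114668594 (+) and chr17:33824548-33824577 (−) in the order given. A match is a description of these letters and not a measured start.
Rpl35: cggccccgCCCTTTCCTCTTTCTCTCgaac
Rps6: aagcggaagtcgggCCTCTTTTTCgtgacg
Rps10: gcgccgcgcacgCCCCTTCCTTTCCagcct
Rpl38: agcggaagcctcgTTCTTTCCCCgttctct
Rps28: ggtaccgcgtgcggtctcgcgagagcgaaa

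The 81 genes took 32.0% of all UMIs in EB cells (32.001 to 32.026%) and 26.0% in YS cells (26.006 to 26.041%), a difference of 5.99 percentage points. Per cell, the median share was 31.9% in EB, with 5% of cells under 26.0% and 5% over 37.4%. In YS the median was 25.5%, with 5% of cells under 15.8% and 5% over 31.4%. The ranges of single cells therefore overlapped widely. Globins alone took 7.24% of the YS UMIs, and with the globin genes left out of the total the YS share was 28.1%, which brought the difference to 3.96 points. Droplets without a cell showed the same order, with 35.3% in EB and 27.6% in YS. Small-subunit genes gave 45.5% of the ribosomal protein UMIs in EB and 44.3% in YS. Barcodes that failed the mitochondrial limit of 10% had shares of 15.1% and 14.7%.

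Among EB clusters the share ranged over 4.12 points. It was highest in definitive endoderm-like cells (34.4%, 128 cells), followed by epiblast-like cells (33.7%, 132 cells). Naive pluripotent-like (32.6%, 139 cells) and germ cell-like cells (32.3%, 146 cells) lay near the library value. It was lowest in epithelial and amnion-like ectoderm (30.3%, 105 cells) and in allantois and extraembryonic mesoderm-like cells (30.4%, 172 cells). The 2 hemangiogenic progenitor-like clusters, which express regulators of blood and endothelial fate, stood apart from each other at 31.4% (220 cells) and 32.8% (100 cells). The 3 unnamed clusters lay between 31.5% and 32.7%. The ends of this order changed with the clustering and the cell limits: epiblast-like cells were highest at resolution 1.5 (35.7%) and with 1000 variable genes (34.6%), and allantois and extraembryonic mesoderm-like cells were lowest under 4 alternatives and an unnamed cluster under 1.

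YS clusters spread over 12.5 points, from 30.0% in megakaryocyte-like cells (56 cells) to 17.6% in extraembryonic endoderm-like cells (27 cells). Blood progenitors and their granulocyte and mast cell-like relatives were high: 28.2% in hematopoietic progenitor-like cells (102 cells) and 28.1% and 29.4% in both granulocyte and mast cell-like clusters. The unnamed cluster 11 (31 cells) lay among them at 28.5%. With a doubled UMI minimum an unnamed cluster (30.1%) was the highest of the library in place of the megakaryocyte-like cells. Macrophage-like (25.9%) and mesothelial-like cells (26.5%) were intermediate. Smooth muscle-like (23.8%), mesenchymal-like (23.0%) and endothelial-like cells (22.6%) were low, and the last had a median of only 13184 UMIs per cell. Both erythroid-like clusters were at 24.0% and 23.3%, but at 34.7% and 35.0% once globin UMIs were left out of the total, the highest values of the library on that scale. The order of YS groups thus depended on the globins for erythroid-like cells.

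**Figure D1:**
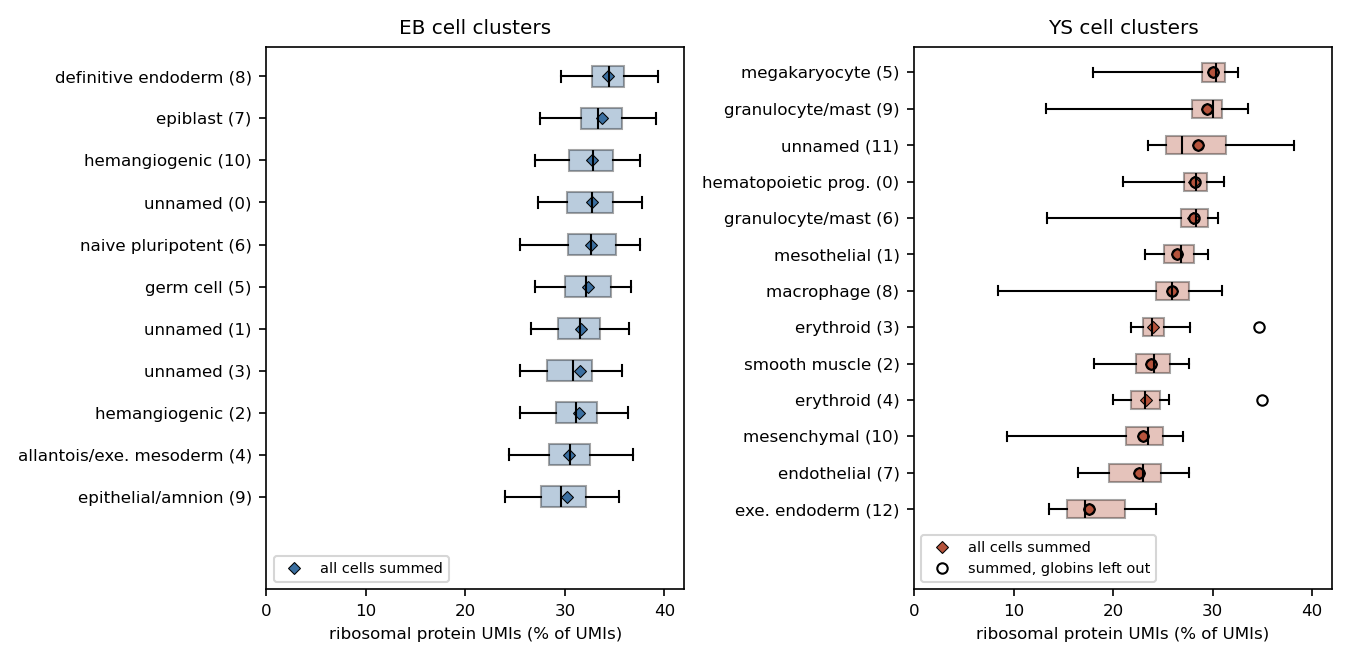
Share of UMIs (%, x axis) from the 81 ribosomal protein genes by cell cluster (y axis, marker-based name with cluster number, names mean likeness). Boxes show quartiles and median over cells, whiskers the 5th and 95th percentile, diamonds the summed cells, and open circles the summed YS cells without globin UMIs. EB clusters sit between 30.3% and 34.4%, and YS clusters between 17.6% and 30.0%.

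The extraembryonic endoderm-like cluster, the absorptive and secretory layer of the yolk sac, also had the most mitochondrial RNA of the YS clusters, with a median of 5.01% of UMIs per cell. Its 13 cells at or under 5% mitochondrial UMIs had a ribosomal protein share of 18.8%, and its 14 cells above that had 16.4%. In the other YS clusters with cells above 5%, these cells had shares between 10.7% and 23.5%, each lower than the remaining cells of their cluster. In EB, cells above 5% had the lower share in each cluster except the germ cell-like one, at 33.7% against 32.2%. Over all cells, the share and the mitochondrial share had a Spearman correlation of −0.305 in YS (775 cells) and 0.085 in EB (1878 cells). The Pearson correlations were −0.519 and −0.163. For the share and the UMIs per cell the Spearman correlations were 0.330 and 0.054. Both are proportions or totals of the same UMIs. The part of RNA quality in the low share of the extraembryonic endoderm-like cells was not tested beyond these values.

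Between libraries, 65 of the 80 genes had a higher CPM in EB, with a median ratio of 1.28-fold (log2 0.35), whereas the median over all 15621 genes tested was at log2 0.00. At the 1.5-fold limit 11 genes were called higher in EB, against 27.6% of all genes tested, and 4 were called higher in YS, against 29.3%. Both shares of ribosomal protein genes, which are mostly abundant mRNAs, were below the background of all genes. Small-subunit genes had a median log2 ratio of 0.41 (3 of 32 called higher in EB, 2 in YS) and large-subunit genes 0.29 (8 and 2 of 48). Across the 2 libraries the log10 CPM of the 80 genes had a Pearson correlation of 0.938, and of 0.982 without Rpl29, across genes, which are not independent replicates. In all, 8.32% of the ribosomal protein UMIs would have to move between genes to make both compositions equal.

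A difference shared by nearly all cell groups was frequent in this family. In 37 of the 80 genes every EB cluster stood above every YS cluster of at least 20 cells, against 2.03% of all genes, and in 4 (Rpl27, Rpl29, Rps28 and Rps29) every YS cluster stood above every EB cluster, against 0.819%. Globins took 30.6% and 33.3% of the UMIs in the erythroid-like clusters and at most 0.303% in the other YS clusters. The first count depended on the scaling of the former. With globin UMIs left out of the total it was 12, against 1.79%. With both erythroid-like clusters left out it was 37, against 2.1%. The 4 genes of the second group were the same in both alternatives. Genes of 1 library share its depth and total, so that these counts are not independent. The background holds genes from 10 UMIs upward and was not matched for the abundance of ribosomal protein mRNAs.

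The genes called higher in EB were 8 of the large and 3 of the small subunit, and their ratios were close together. Rps27l, a paralog of Rps27 known as a p53 target, had 1898 CPM in EB and 1077 in YS (1.76-fold, 1.74 to 1.79). Rpl12, a protein at the base of the P-stalk, had 2842 and 1639 CPM (1.73-fold). Rps20, of the head of the small subunit, had 6025 and 3579 CPM (1.68-fold). Rpl23, Rpl18, Rpl8, Rpl10a, Rpl13a, Rpl7 and Rps24 lay between 1.51-fold and 1.62-fold. For all of these genes, from Rps27l to Rps24, every EB cluster was above every YS cluster. With globin UMIs left out of the total this no longer held for Rpl13a and Rpl7. Rpl10l, the remaining gene, rested on 17 and 3 UMIs, and its ratio of 2.70-fold had an interval from 0.782 to 14.4 that covers 1. Only 4 genes would be called without the globin UMIs, so the size of the group depended on them.

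Measured against the median ratio of the family, 68 of the 80 genes lay within 1.5-fold, and 11 were outliers with enough UMIs, all toward YS. The largest was Rpl29, of the large subunit, with 35.4 CPM in EB and 1814 in YS, 51.2-fold (48.8 to 53.7) higher in YS. Rps28, a small protein near the mRNA exit of the small subunit, had 1611 CPM in EB and 2701 in YS (1.68-fold higher in YS). Rps29, a zinc-binding small-subunit protein, had 1999 and 3080 CPM (1.54-fold higher in YS). Both are among the genes of Diamond-Blackfan anaemia, as are Rps24 and Rpl18, which were called higher in EB. Rps28 ranged from 1424 to 1708 CPM over EB clusters and from 2148 to 3485 over YS clusters. For Rps29 the ranges were 1838 to 2179 and 2341 to 3656 CPM, so that neither gene overlapped between libraries.

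The remaining outliers differed less. Rplp0 had 3176 CPM in EB and 4665 in YS, Rpl27 772 and 1108, and Rps27 1762 and 2385. Rps2 (5130 and 6548 CPM), Rps21 (1543 and 1986), Rpl35 (1842 and 2288) and Rpl38 (1543 and 1878), the last known for its part in the translation of Hox mRNAs, were between 1.22-fold and 1.29-fold higher in YS. Of these 7 genes only Rpl27 did not overlap between the clusters of both libraries, with 731 to 820 CPM in EB and 855 to 1400 in YS. Rpl39l, the outlier with the fewest UMIs, is described with the paralogs below. Genes with transcripts under 500 bases had a median log2 ratio of 0.20 (12 genes) and the longer ones 0.38 (68 genes). The outliers Rps27, Rpl38, Rps29, Rps28 and Rps21 have transcripts of 345 to 394 bases, whereas Rpl36, with 383, was no outlier. The other outliers have 614 to 1358 bases. Over all tested genes the ratio and the transcript length had a Spearman correlation of 0.211. The part of transcript length in these differences was not tested further.

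**Figure D2:**
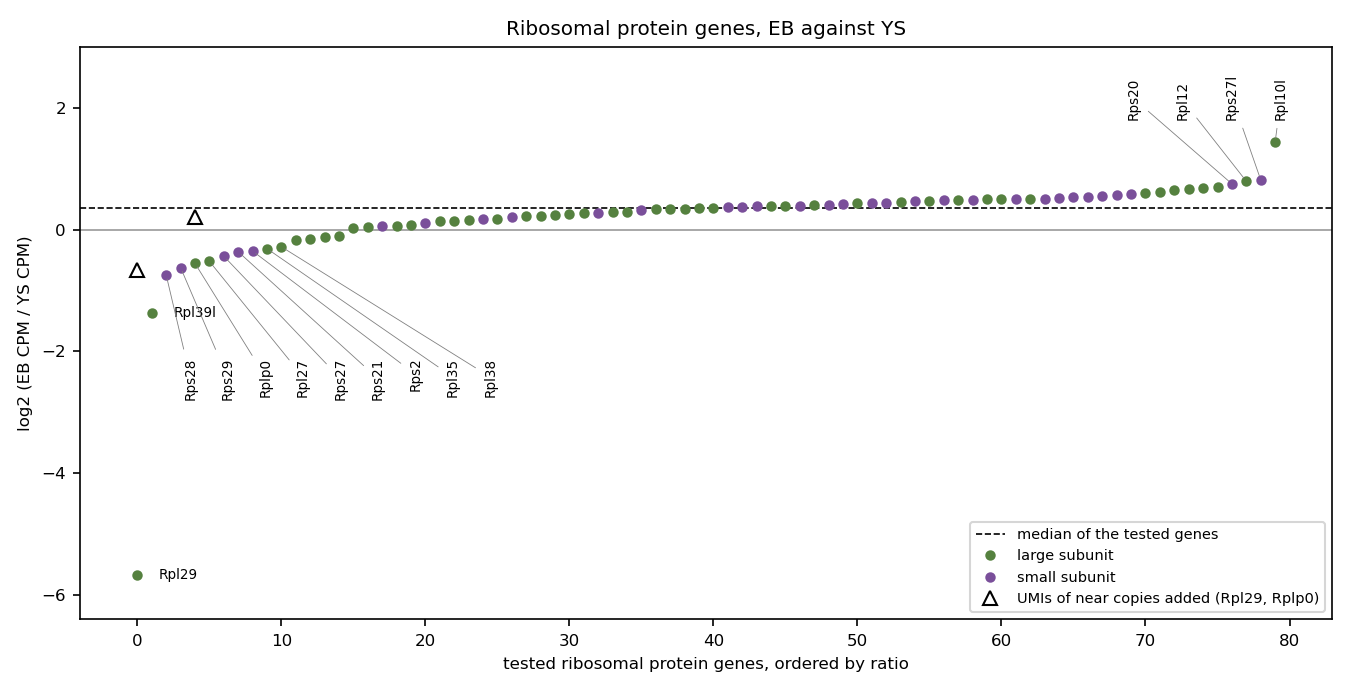
Log2 ratio of EB to YS CPM (y axis) for the 80 tested ribosomal protein genes in order of the ratio (x axis), coloured by subunit, with the family median of 0.35 dashed. Named points below the line are the 11 outliers and those above it the 4 highest ratios. Triangles show Rpl29 and Rplp0 after the UMIs of their near copies were added (−0.67 and 0.21).

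Rpl29 and Rplp0 stood out also by what lay outside their own row. A near copy was defined as another annotated gene with at least 95% identity over at least 50% of the member's transcript, and 25 of the 81 genes had a near copy with a row in the tables. Rpl29 lies at chr9:106429454-106431568 (+) and has 27 near copies in the annotation, 4 of them in the tables. The processed pseudogene Gm10709, at chr9:7751725-7752204 (+), is 99.2% identical over 480 bases. Rplp0 lies at chr5:115559467-115563727 (+), and its processed pseudogene Gm8730, at chr8:102864845-102865798 (−), is 98.7% identical over 954 bases. All coordinates are on GRCm38. Gm10709 and Gm8730 were singled out after their values were seen.

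In the aligned coding part Gm10709 differs from Rpl29 by 4 substitutions over 480 of 483 bases, G205A, C300T, T423C and G457A, counted from the first coding base, with the base of Rpl29 first. Gm8730 differs from Rplp0 by 12 over 954 bases, among them A390G, A393G and A447T. The 60-base stretches with the most differences are shown because within the aligned coding part reads of a gene and its copy can be told apart at such bases, in capitals. They cover coding bases 410 to 469 of Rpl29 with chr9:7752134-7752193 (+), and 389 to 448 of Rplp0 with chr8:102865351-102865410 (−). Whether reads of these libraries covered such bases was not tested.
Rpl29: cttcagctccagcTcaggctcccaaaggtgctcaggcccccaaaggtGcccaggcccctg
Gm10709: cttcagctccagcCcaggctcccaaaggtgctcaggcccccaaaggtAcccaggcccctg
Rplp0: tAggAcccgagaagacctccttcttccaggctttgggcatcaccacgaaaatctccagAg
Gm8730: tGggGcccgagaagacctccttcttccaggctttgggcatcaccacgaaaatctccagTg

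The UMIs of Rpl29 and its copies were divided in opposite ways in the 2 libraries. In EB, Rpl29 had 1796 UMIs and Gm10709 had 55852 (1102 CPM). In YS, Rpl29 had 43864 UMIs and Gm10709 had 220 (9.10 CPM). The 4 copies together held 96.9% (96.8 to 97.1%) of the summed UMIs in EB and 0.879% (0.794 to 0.970%) in YS. The division was alike in every cell group of at least 20 cells: 96.5 to 97.3% over EB clusters and 0.603 to 1.40% over YS clusters. With the copies added, the level was 1149 CPM in EB and 1830 in YS, a log2 ratio of −0.67 in place of −5.68. An Rpl29 UMI was found in 1072 EB cells (57.1%) and in all 775 YS cells. With each cell thinned to 6000 UMIs, these were 18.5% and 100%. In droplets without a cell Rpl29 stood at 32.6 CPM in EB and 1823 in YS. How reads that fit both a gene and its copy were counted was not given in the sources used here, and the share of the 51.2-fold difference that lies in transcription of the Rpl29 locus was not tested.

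Rplp0 showed a second, different pattern. In EB its row held 160971 UMIs and that of Gm8730 held 189491, so that the copy took 54.1% of the pair (53.9 to 54.2%). The copy's part was 53.2 to 54.5% over EB clusters, and the per-cell values scattered around a median of 54.1% no more than counting predicts, with an index of 0.798 (1 is the binomial expectation). In YS the rows held 112813 and 31704 UMIs, so that the copy took 21.9%, and the index was 19.4. For the other 47 combinations of a gene and a library with at least 30 copy UMIs the index was between 0.756 and 1.05.

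YS cells fell into separate ranges of this copy share, which were set at 15% and 25% after the values were seen. Of 754 YS cells with at least 20 UMIs of the pair, 403 (53.4%) lay under 15%, with a median of 7.89%, and 344 (45.6%) lay at 25% or more, with a median of 34.1%. Only 7 cells lay between. All 56 megakaryocyte-like cells, all 35 macrophage-like cells and all 32 cells of the smaller granulocyte and mast cell-like cluster with enough UMIs were in the low range. All but 1 of 101 mesothelial-like cells were in the high range. Smooth muscle-like cells were low in 89 of 91, and hematopoietic progenitor-like cells high in 86 of 102. Erythroid-like cells were mixed, with 32 low and 60 high in the larger cluster and 38 and 22 in the smaller. The library mixes sacs of 2 stages, no label ties a cell to an embryo or stage, and the relation of the ranges to either was not tested.

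**Figure D3:**
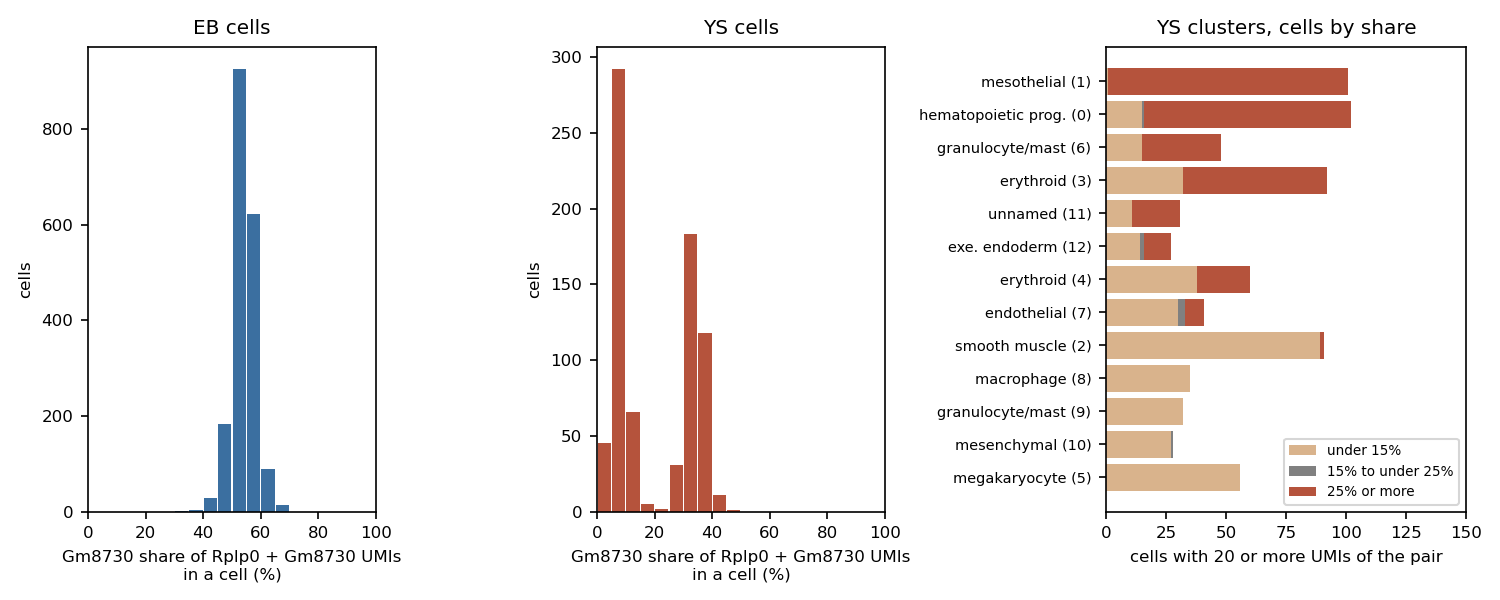
Left and middle, number of cells (y axis) by the percentage of Rplp0 plus Gm8730 UMIs that lie in Gm8730 (x axis, bins of 5%), for EB and YS cells with at least 20 UMIs of the pair. Right, number of YS cells (x axis) in each range by cluster (y axis). EB cells form a single peak around 54.1%, and YS cells form separate peaks with medians of 7.89% and 34.1%.

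Cells of both ranges were then compared within each cell cluster that had at least 10 of each, as a description. In the hematopoietic progenitor-like cluster, the low-range and high-range cells had ribosomal protein shares of 28.7% and 28.1%, in the erythroid-like clusters 23.7% and 24.2%, and 23.3% and 23.3%, and in the larger granulocyte and mast cell-like cluster 27.7% and 28.2%. Of 77 genes compared besides Rplp0, 1 (Rps4l), 0, 1 (Rps4l) and 0 differed by at least 1.5-fold in these 4 clusters, against 26.5%, 19.7%, 20.2% and 21.4% of all genes with at least 30 UMIs. The background of each cluster held only genes with a UMI in both ranges. It was not matched for the abundance of ribosomal protein mRNAs, so the lower counts of the family cannot be read as a result about it. In the same clusters, by the way the ranges were set, Gm8730 stood at 399 to 493 CPM in low-range cells and 2260 to 2507 in high-range cells, and Rplp0 at 4973 to 5490 and 4331 to 4854 CPM. The pair together was lower in low-range cells, with 5372 to 5983 CPM against 6625 to 7360. Extraembryonic endoderm-like cells differed, with shares of 15.9% in 14 low-range and 21.9% in 11 high-range cells, whose median depths were 34823 and 15594 UMIs, and 16 of 77 genes were lower in the former, against 30.6% of all genes that differed in either direction. The unnamed cluster 11 had 34.4% in 11 low-range and 26.6% in 20 high-range cells, at median depths of 12359 and 23860 UMIs, and 6 of 77 genes differed, against 41.7%.

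With Gm8730 added, Rplp0 stood at 6914 CPM in EB and 5976 in YS, a log2 ratio of 0.21 in place of −0.55, so its direction turned and it was no longer an outlier. The other P-stalk genes were higher in EB and not past 1.5-fold. Rplp1 had 6089 CPM in EB and 4991 in YS (1.22-fold), and its clusters overlapped. Rplp2 had 4715 and 3918 CPM (1.20-fold), with 4481 to 5101 CPM over EB clusters and 2936 to 4436 over YS clusters, which did not overlap, but did once globin UMIs were left out of the total. Copies of Rpl11, a protein that binds the p53 regulator Mdm2 as part of the 5S particle, held 8.30% of the summed UMIs in EB and 2.47% in YS, mostly in Gm10036. For 21 other genes with copy UMIs in both libraries the copies held 0.222 to 15.9%, and the percentage was higher in YS for 20 of them, by at most 2.91-fold.

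Most ribosomal protein genes kept nearly the same part of the family across cell groups. To separate composition from the total share, each gene's percentage of the ribosomal protein UMIs was compared between clusters. The highest cluster exceeded the lowest by a median of 1.12-fold in EB, and 76 of 78 genes were under 1.5-fold. In YS the median was 1.32-fold, and 64 of 78 genes were under 1.5-fold. Each cluster was also compared with the other cells of its library. In EB, 17 of 891 combinations of gene and cluster were at least 1.5-fold apart and all were in Rpl39l, Rps27l or Rps4l. Those of Rpl39l outside the naive pluripotent-like cluster had 0 to 2 UMIs each. Their other cells included that cluster with its 66 UMIs, so they restate its excess. In YS, 15 of 1053 were, in the same 3 genes and in Rpl4. Those of Rpl39l were clusters with 0 to 8 of its 89 UMIs, too few to show a separate difference. Of the 78 genes with a range over clusters, Rps4l and Rps27l, both paralogs, varied most in each library.

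On the CPM scale each cluster was compared with the other cells of its library. The naive pluripotent-like cluster had 3 genes called higher (Rps4l, Rpl10l and Rpl39l; background 15.8%) and 0 called lower (16.8%). It held 11 of the 17 EB UMIs of Rpl10l and 66 of the 72 of Rpl39l. Both genes reached the limit of 10 UMIs in EB only through this cluster, so their calls restate where their UMIs lie. In YS the extraembryonic endoderm-like cluster was the exception: 34 of 79 genes were called lower, against 27.5% of all genes, and 1, Rps4l, was called higher, against 26.6%. Its median log2 difference to the other YS cells was −0.55. Rpl4, of the large subunit, was the only gene that fell there at least 1.5-fold further than the family. It stood at 1324 CPM in the cluster and 2991 in the other cells, and 0.663 times its usual part of the ribosomal protein UMIs (0.622 to 0.706). The parts of Rps4l and Rps27l were higher there, at 3.87 and 1.53 times those in the other cells. The CPM of Rps27l was 1102 against 1076. Rpl4 was no longer past this limit with a doubled UMI minimum, where the cluster remained, or with a mitochondrial limit of 5%, where the cluster held fewer than 20 cells. In endothelial-like cells Rps21 and Rpl5 were called lower (2 genes, against 17.1% of all genes) and none higher (31.6%), and in mesenchymal-like cells Rps12 was called lower (17.2%) and Rps4l higher (30.7%). In the larger erythroid-like cluster no gene was called higher (4.31%), and Rps4l and Rpl39l were called lower, where 64.7% of all genes were called lower.

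Rps4l, the pseudogene related to the X-linked Rps4x with 79.7% identity over the aligned bases, varied most between clusters among well-counted genes. It lies at chr6:148354656-148355598 (+). At the library level it had 308 CPM in EB and 233 in YS. In EB it was highest in naive pluripotent-like cells at 623 CPM (599 to 649), 2.17 times its part of the family in the other EB cells, followed by germ cell-like cells at 462 CPM. It was lowest in allantois and extraembryonic mesoderm-like (179 CPM) and definitive endoderm-like cells (187 CPM), whose intervals overlap. In YS it was highest in extraembryonic endoderm-like (574 CPM), mesenchymal-like (490) and smooth muscle-like cells (417). Both erythroid-like clusters were lowest, at 55.8 and 40.6 CPM. As a percentage of the UMIs of Rps4l and Rps4x, it ran from 1.16% in an erythroid-like cluster to 24.1% in extraembryonic endoderm-like cells, where Rps4x itself was at its YS minimum of 1808 CPM. Percentages of a pair serve here only to compare groups, since UMIs of different genes are not captured equally.

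Rps27l took 51.9% of the UMIs of Rps27l and Rps27 in EB (51.6 to 52.1%) and 31.1% in YS (30.8 to 31.4%). The aligned parts of both are 76.4% identical, so the rows are separable. Rps27 also has a near copy, Rps27rt, identical to it over 341 bases. The row of Rps27rt held 16887 UMIs in EB and 10751 in YS. These were not counted in the pair, and the percentage of Rps27l would be lower in both libraries with them. Over EB clusters the percentage ran from 41.8% in definitive endoderm-like to 56.8% in epithelial and amnion-like cells. Over YS clusters it ran from 17.6% in the unnamed cluster 11 to 41.3% in extraembryonic endoderm-like cells, so that the values did not overlap, although the intervals of the nearest clusters did (40.7 to 42.8% and 39.1 to 43.5%). Its CPM was between 1374 and 2204 over EB clusters and between 680 and 1350 over YS clusters, again with overlapping intervals of the nearest clusters.

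**Figure D4:**
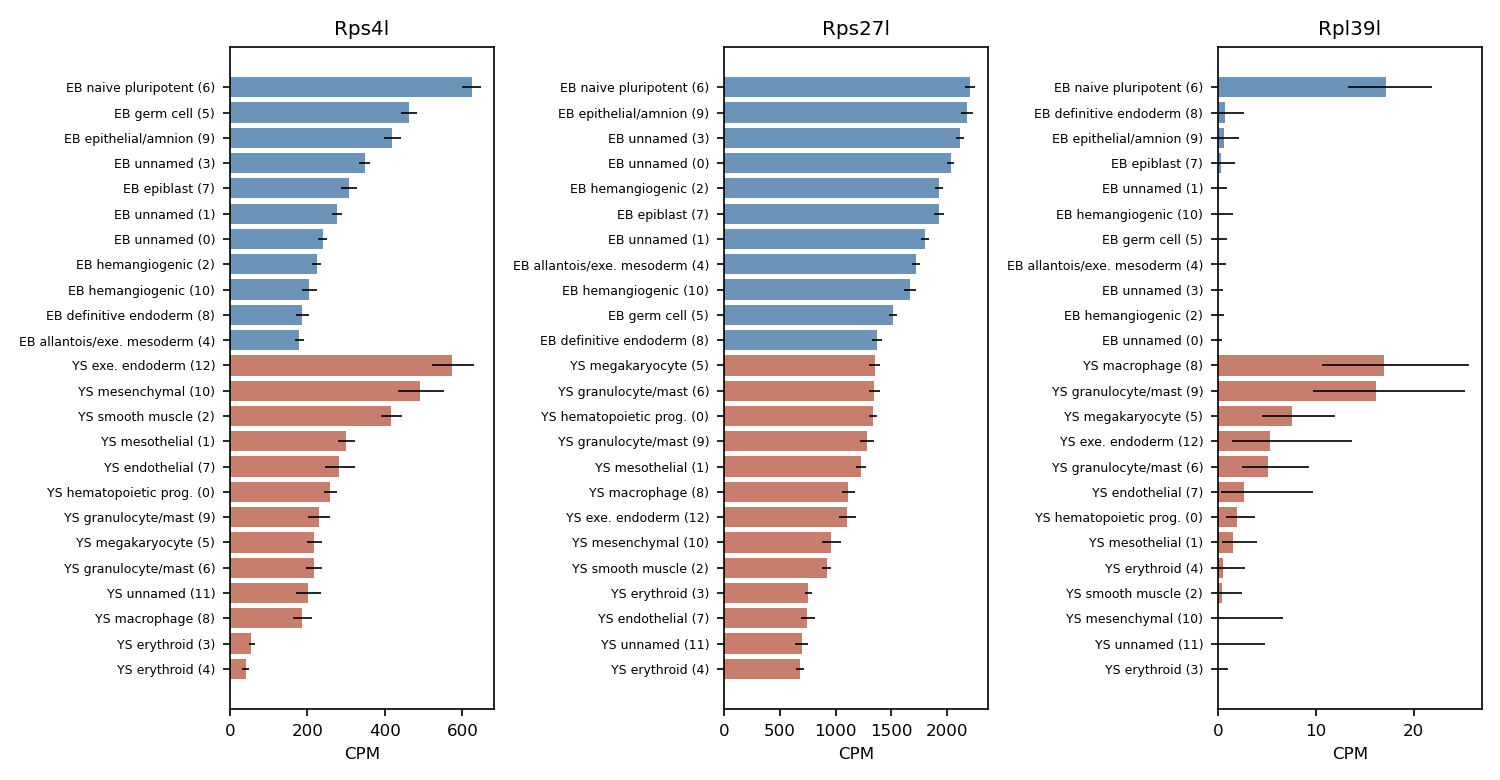
CPM (x axis) of Rps4l, Rps27l and Rpl39l by cluster (y axis, names mean likeness), EB in blue and YS in red, bars with exact Poisson 95% intervals. Rps4l is highest in naive pluripotent-like EB cells (623 CPM) and lowest in erythroid-like YS cells (40.6 CPM), and Rps27l is higher in each EB cluster than in any YS cluster. Rpl39l reaches 17.2 CPM in naive pluripotent-like cells. Its highest YS value, 17.0 CPM in macrophage-like cells, rests on 22 UMIs in 2 cells.

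Rpl39l, the testis-known paralog of Rpl39, had 72 UMIs in EB, and 66 of them were in the naive pluripotent-like cluster (17.2 CPM, 13.3 to 21.9), in 30 of its 139 cells (21.6%, 15.1 to 29.4%). No other EB cluster had more than 2 UMIs. Its part of the family in that cluster was 132 times that in the other EB cells, with an interval from 57.4 to 372. In YS it had 89 UMIs in only 14 cells, and 69 of them were in 5 cells. The macrophage-like cluster held the most of any YS cluster, 22 in 2 cells (17.0 CPM). A single cell of the smaller granulocyte and mast cell-like cluster held 19 and a single megakaryocyte-like cell held 18. Droplets without a cell had 10.6 CPM in YS, above the 3.68 CPM in YS cells. The 2.59-fold higher CPM of Rpl39l in YS thus rested on a few cells. Rpl10l had 11 of its 17 EB UMIs in the naive pluripotent-like cluster, and Rpl3l, known from muscle, 4 of its 6, counts too low for a level. Rpl39 itself differed little, with 3157 CPM in EB and 2988 in YS.

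Paralogs outside the symbol rule were compared in the same way. Rpl22l1 took 42.1% of its pair with Rpl22 in EB and 52.5% in YS. Rpl36al took 25.1% and 30.0% of its pair with Rpl36a, and Rpl7l1 3.98% and 4.24% of its pair with Rpl7. Their differences between libraries were smaller than that of Rps27l.

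Cells of a library varied in composition beyond counting. The variance of a gene's UMIs over cells, divided by that expected from each cell's ribosomal protein total (1 is the Poisson expectation), had a median of 2.08 over genes in EB and 2.56 in YS, and of 2.00 and 1.97 within clusters. The highest values were 6.05 for Rplp1 in EB and 9.66 for Rpl41, the smallest ribosomal protein, in YS. Of the 79 genes with at least 30 UMIs in each library, 72 were found in every EB cell and 71 in every YS cell.

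Genes that build or serve ribosomes were compared between libraries by the same 1.5-fold limit, beside a median over all genes of log2 0.00 and shares of 27.6% called higher in EB and 29.3% in YS. Of 19 ribosomal protein genes of Diamond-Blackfan anaemia, 2 were called higher in EB and 2 in YS, with a median log2 ratio of 0.23. Ribosomal genes outside the symbol rule had 1 of 10 called higher in EB (Gnb2l1, the scaffold protein Rack1, 1.61-fold) and a median of −0.20. Among 14 genes of RNA polymerase I, which makes the large rRNA precursor, 2 were called higher in EB (Polr1c 2.32-fold and Znrd1 1.75-fold) and none in YS, with a median of 0.29. Of 9 core proteins of the snoRNPs, which modify rRNA, 1 was called higher in YS (Nop58, with an EB to YS ratio of 0.628), with a median of −0.01. Of 29 assembly factors 1 was called higher in YS (Ltv1, 0.511), with a median of 0.01. The 14 translation factors of the TOP class had the highest median of these lists, 0.51. Of them, 4 were called higher in EB, a share near that of all genes, among them Eif4b (1.89-fold) and Eef1b2 (1.73-fold), and none in YS. Among 13 regulators 3 were called in each direction: Mycn was 3.15-fold higher in EB, whereas Myc, its close relative, had a ratio of 0.519, Rps6kb1, an S6 kinase downstream of mTOR, 0.539, and Yy1 0.561. For comparison, 4 of 76 mitochondrial ribosomal protein genes were called higher in EB and 7 in YS, with a median of 0.02.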

How the data were processed

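Raw UMI counts per gene and barcode were deposited by the authors as unfiltered 10x matrices of 33456 genes and 737280 barcodes per library, on build mm10 per the submitters' processing notes; the aligner, annotation and handling of multi-mapping reads were not given in the sources used here. Total counts were 73915225 in EB and 30294678 in YS. Cells were barcodes with at least 6172 (EB) or 6537 (YS) UMIs, a minimum of 10% of the 99th percentile of the 3000 largest barcodes, and at most 10% mitochondrial UMIs. 142 and 26 barcodes failed the latter. Scrublet marked 3 and 2 doublets, which were kept. Cells were clustered with scanpy 1.11.5 and leidenalg 0.10.2 (2000 variable genes, 30 components, 15 neighbours, resolution 1) without ribosomal genes, and named from markers. Counts were summed per library or cluster. Intervals are exact Poisson, Clopper-Pearson or conditional binomial. With 1 library per group no test was run.

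The named genes were outliers between libraries (at least 1.5-fold from the family median, at least 30 UMIs in the higher group), outliers within clusters of at least 20 cells, all paralog pairs, the P-stalk genes and the extreme genes of each list; 0 counts were floored at 3. Members and lists were chosen with earlier results of these data known. Near copies came from BLAST+ 2.17.0 on GENCODE transcripts (GRCm38, the same assembly as mm10). Alternatives varied cell limits, clustering, denominators and scaling (edgeR 4.0.16 TMM factors). Programs were tested on simulated data.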

Additional observations from a re-analysis of the deposited data

How the results depend on the processing

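The EB share exceeded the YS share under every alternative run. The difference of 5.99 points was 5.87 with a doubled UMI minimum, 5.71 and 5.78 with mitochondrial limits of 5% and 20%, 6.42 over nuclear genes, 3.96 without globin UMIs, 6.58 as a mean over cells, 5.96 after subtraction of free RNA and 6.26 with near copies added, an alternative chosen after seeing the data. The 11 genes called higher in EB became 4 without globin UMIs and 1 with ribosomal protein UMIs as the only denominator, where those called higher in YS became 10 in place of 4. They were 15 under TMM and median-of-ratios scaling and as a mean over cells, and 12 over nuclear genes. The count of genes with every EB cluster above every YS cluster was 12 in place of 37 without globin UMIs, also chosen after seeing the data. The outliers from the family median numbered 10 or 11 throughout, 10 with near copies added, when Rplp0 was no longer one. The EB range over clusters of 4.12 points was 5.65 at resolution 1.5, 4.05 with 1000 variable genes, 4.20 when clustered with the ribosomal genes, 3.96 with a mitochondrial limit of 5%, 4.28 without doublets and 4.50 over nuclear genes. The YS range of 12.5 points was 12.6 with a doubled UMI minimum, 12.1 over nuclear genes and 17.4 without globin UMIs, when erythroid-like cells were highest. With a mitochondrial limit of 5% it was 7.54, since the extraembryonic endoderm-like cluster then held fewer than 20 cells. Rps4l took 5.97% of its pair in YS at that limit, in place of 6.17%. The cause of the other shifts was not tested. No paired analysis was possible because each group has a single library. Depth limited Rpl39l, Rpl10l and Rpl3l.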
